A study of Mus musculus with 17 samples.

Results

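The genes followed here encode the enzymes that make serine from glucose and the enzymes that carry single carbon units on folate. They are *Phgdh*, *Psat1* and *Psph* of serine synthesis, the cytosolic folate enzymes *Shmt1*, *Mthfd1* and *Aldh1l1*, and the mitochondrial folate enzymes *Shmt2*, *Mthfd2*, *Mthfd1l* and *Aldh1l2*. The 10 genes were found by their symbols among the 56691 gene rows of a table of read counts, where each has 1 row. The list was selected on results of the same 17 libraries, that is on the expression values given below, and which comparison entered that choice is not recorded. All fold changes and p-values below are therefore a description of these libraries and no independent evidence.

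Bulk RNA-seq was performed on cultured astrocytes of C57BL/6 mice that had been treated with agents of the SHH or the FGF pathway. All cultures came from the neonatal brain without meninges, olfactory bulbs and cerebellum. Immunopanning gave the astrocytes. A cell suspension was passed over antibody-coated dishes that remove CD45-positive and O4-positive cells and then over a dish against HepaCAM that holds astrocytes. The cells were grown without serum in a medium with heparin-binding EGF-like growth factor. In the SAG experiment, 3 cultures received SAG at 500 ng ml−1, a small molecule that activates the SHH pathway through Smoothened, and 3 received the solvent DMSO, from day 3 in vitro for 3 days. In the FGF experiment, 4 cultures received FGF2, 3 received FGF10, each at 50 ng ml−1, and 4 received the vehicle PBS, from day 2 in vitro for 7 days. The cells pool regions of the brain. The labels do not say which cultures shared a preparation of cells, so the p-values measure the spread between these libraries, which may in part be technical.

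The libraries read the 3ʹ end of polyadenylated transcripts and held between 17481727 and 68342287 counts on genes, with a median of 37173676. Levels are given as CPM, read counts scaled to library size with TMM normalization over the 17 libraries. They were compared between groups and not between genes, because 3ʹ-end counts are not scaled by length and the share of captured ends can differ between genes. Of 12 astrocyte markers, 11 had counts in every library, and their summed level ran from 6352 to 13748 CPM. The exception was *S100b*, at 0 in 2 libraries. The summed level of 10 markers of microglia or macrophages was at most 20.1 CPM, with *Csf1r*, *C1qb*, *Aif1* and *Trem2* at 0 in all 17. That of 10 markers of the oligodendrocyte lineage was between 330.2 and 939 CPM, and that of 10 markers of neurons between 26.1 and 245 CPM. In bulk samples, fewer cells of a type and less RNA per cell cannot be told apart.

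Serine is made from an intermediate of glycolysis by phosphoglycerate dehydrogenase (Phgdh), phosphoserine aminotransferase (Psat1) and phosphoserine phosphatase (Psph), and astrocytes are known as a main site of this pathway in the brain. Serine hydroxymethyltransferases pass a carbon from serine to tetrahydrofolate, Shmt1 in the cytosol and Shmt2 in mitochondria. In mitochondria Mthfd2 oxidizes this carbon and Mthfd1l releases it as formate, which Mthfd1 in the cytosol returns to folate for the synthesis of purines and thymidylate. Aldh1l1 in the cytosol and Aldh1l2 in mitochondria oxidize 10-formyltetrahydrofolate to CO2 and make NADPH, and Aldh1l1 is a widely used marker of astrocytes.

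The sequence upstream of the start is shown for *Psat1*, *Shmt2* and *Aldh1l1*, whose levels differed together between libraries as described below, and for *Phgdh*, whose level did not differ between the same libraries. Each run is the 250 bases before the start in RefSeq (GRCm38.p6), written 5ʹ to 3ʹ on the strand of the gene, with CCAAT or its reverse complement ATTGG in capitals.
*Phgdh* (chr3:98339970-98340219, minus strand): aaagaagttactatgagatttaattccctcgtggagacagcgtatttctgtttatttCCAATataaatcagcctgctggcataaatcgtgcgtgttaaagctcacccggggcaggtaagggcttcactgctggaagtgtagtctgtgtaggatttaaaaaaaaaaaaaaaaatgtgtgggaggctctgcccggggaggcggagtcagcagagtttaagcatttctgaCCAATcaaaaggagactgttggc
*Psat1* (chr19:15925060-15925309, minus strand): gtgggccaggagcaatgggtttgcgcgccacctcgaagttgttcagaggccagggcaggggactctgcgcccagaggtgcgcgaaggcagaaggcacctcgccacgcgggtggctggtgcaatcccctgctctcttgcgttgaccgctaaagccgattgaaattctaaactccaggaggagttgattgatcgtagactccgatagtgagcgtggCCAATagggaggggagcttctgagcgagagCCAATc
*Shmt2* (chr10:127522445-127522694, minus strand): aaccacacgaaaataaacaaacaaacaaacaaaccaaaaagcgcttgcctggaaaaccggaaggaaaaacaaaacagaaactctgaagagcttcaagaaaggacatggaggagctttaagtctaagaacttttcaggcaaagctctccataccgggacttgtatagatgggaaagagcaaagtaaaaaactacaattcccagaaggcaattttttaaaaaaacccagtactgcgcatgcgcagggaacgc
*Aldh1l1* (chr6:90550543-90550792, plus strand): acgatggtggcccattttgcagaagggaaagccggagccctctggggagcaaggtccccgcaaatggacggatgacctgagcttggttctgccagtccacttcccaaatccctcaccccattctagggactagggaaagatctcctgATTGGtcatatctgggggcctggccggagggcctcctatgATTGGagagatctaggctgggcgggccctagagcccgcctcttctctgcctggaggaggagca
The letters CCAAT, the core of the CCAAT box, were present on either strand in the windows of 7 of the 9 genes that could be matched to RefSeq promoters, against 33.8% of all 32851 windows and 37.5% of all genes with a window. *Shmt2*, *Mthfd1l* and the window of another start of *Psat1* had none, *Mthfd2* had 3 and *Aldh1l2* was not matched. The C/EBP-ATF response element TGATGNAA, the E-box CACGTG and the cAMP response element TGACGTCA, each also searched on both strands, were in 0 of the 9 genes. They were in 3.91%, 6.86% and 1.77% of all genes with a window. At shares this low, 0 of 9 genes is the most likely count. In the GENCODE annotation of GRCm38 the start of *Aldh1l1* used here lies within the gene (chr6:90486427-90600203, plus strand), and *Psat1* (chr19:15904678-15947337, minus strand) likewise reaches upstream of the window. *Phgdh* spans chr3:98313170-98339990 and *Shmt2* chr10:127517123-127522444, both on the minus strand. *Psat1* overlaps a processed pseudogene and *Shmt2* overlaps *Ndufa4l2*, both on the opposite strand, and *Aldh1l1* overlaps the noncoding genes *Gm45901* and *Gm44236* on its own strand. How the counting treated strand is not given in the sources used here.

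*Phgdh*, the entry enzyme of serine synthesis, was at 114, 181 and 179 CPM in DMSO replicates 1 to 3 and at 168, 120.2 and 96.5 CPM in SAG replicates 1 to 3. In the FGF experiment it was at 118, 125, 81.6 and 133 CPM in PBS, at 139.7, 80.2, 101 and 121 CPM in FGF2, and at 143, 108 and 123 CPM in FGF10, in the order of the replicate numbers. The libraries of all groups overlapped. The group means ranked in the order DMSO (158 ± 37.9 CPM; SD, n = 3), SAG (128 ± 36.4 CPM; n = 3), FGF10 (125 ± 17.9 CPM; n = 3), PBS (114 ± 22.8 CPM; n = 4) and FGF2 (110.5 ± 25.7 CPM; n = 4), and no neighbours in this order differed beyond their spread.

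*Psat1*, which makes phosphoserine, was at 101, 179 and 198 CPM in DMSO and at 107, 227 and 153 CPM in SAG. It was at 176, 159, 257 and 263 CPM in PBS, at 115, 102, 269.9 and 222 CPM in FGF2, and at 128, 176 and 216 CPM in FGF10. In PBS and FGF2 replicates 3 and 4 lay above replicates 1 and 2, and in FGF10 replicate 3 lay above the other two. *Psph*, which releases serine from phosphoserine, ran from 15.8 to 72.9 CPM over the 17 libraries, with group means between 22.4 ± 7.68 CPM in SAG (SD, n = 3) and 53.1 ± 16.3 CPM in FGF2 (SD, n = 4).

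**Figure D1:**
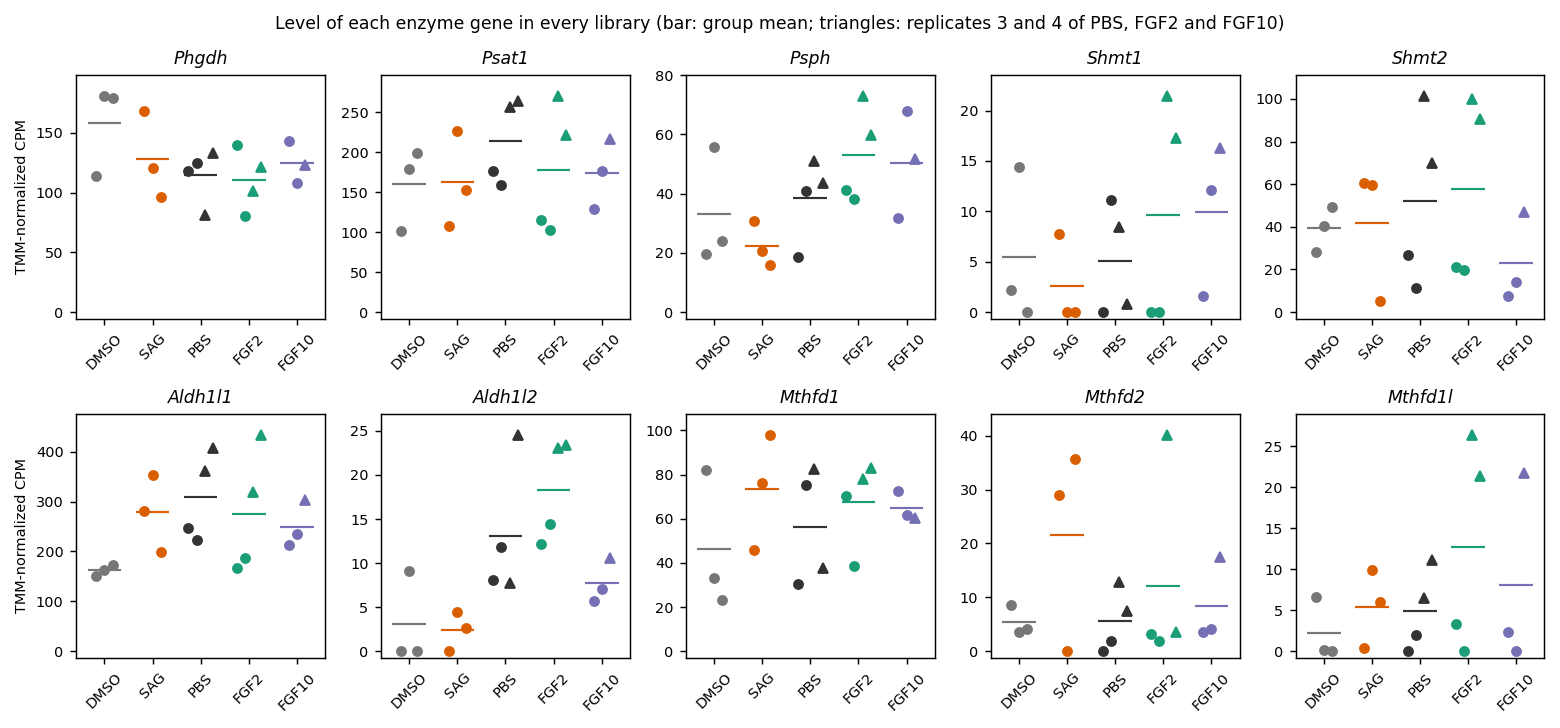
Level of the 10 enzyme genes in each of the 17 libraries (TMM-normalized CPM, a linear axis per gene), with a bar at each group mean and triangles for replicates 3 and 4 of PBS, FGF2 and FGF10. For *Shmt2* the triangles lie between 47.1 and 101 CPM and the circles of the same 3 groups between 7.44 and 26.6 CPM, while the *Phgdh* symbols mix.

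Among the cytosolic folate enzymes, *Aldh1l1* was at 152, 162 and 173 CPM in DMSO replicates 1 to 3 and at 281, 354 and 199.7 CPM in SAG replicates 1 to 3. It was at 247, 223, 360.4 and 407 CPM in PBS, at 166, 187, 319 and 432 CPM in FGF2, and at 213, 235 and 303 CPM in FGF10. The DMSO libraries lay close together, with a coefficient of variation of 6.59%, below every SAG, PBS and FGF10 library. Only FGF2 replicate 1 fell within their range. The group means ranked in the order PBS (309 ± 88.6 CPM; SD, n = 4), SAG (278 ± 77.1 CPM; n = 3), FGF2 (276 ± 124 CPM; n = 4), FGF10 (249.9 ± 46.8 CPM; n = 3) and DMSO (162 ± 10.7 CPM; n = 3). The neighbours PBS and SAG, SAG and FGF2, and FGF2 and FGF10 overlapped, and FGF10 and DMSO did not. FGF10 and DMSO belong to different experiments, so agent, days in culture and experiment cannot be told apart. The share of all genes without overlap between them was not determined.

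*Mthfd1*, the cytosolic enzyme that charges folate with formate, ran from 23.4 to 97.8 CPM, and its group means lay between 46.3 ± 31.5 CPM in DMSO (SD, n = 3) and 73.3 ± 26.1 CPM in SAG (SD, n = 3). *Shmt1*, the cytosolic hydroxymethyltransferase, was at 0 in 6 of the 17 libraries, at least 1 of them in every group except FGF10, and reached 21.4 CPM in FGF2 replicate 3. A count of 0 allows a level of up to 0.0447 to 0.172 CPM, depending on the library, at 3 counts and counting error only.

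Of the mitochondrial folate enzymes, *Shmt2* was at 28.3, 40.3 and 49.1 CPM in DMSO and at 60.7, 59.6 and 5.02 CPM in SAG, where replicate 3 was the lowest of all 17 libraries. It was at 26.6, 11.1, 101 and 70.0 CPM in PBS, at 21.3, 19.6, 99.99 and 90.6 CPM in FGF2, and at 7.44, 14.0 and 47.1 CPM in FGF10. Within each group of the FGF experiment the libraries fell into a low and a high range, with replicates 1 and 2 low.

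*Mthfd1l*, which releases formate, was at 0, 2.04, 6.45 and 11.1 CPM in PBS, at 3.37, 0, 26.3 and 21.3 CPM in FGF2, and at 2.40, 0 and 21.7 CPM in FGF10. In the SAG experiment it was at 6.65, 0.109 and 0 CPM in DMSO and at 0.402, 9.90 and 6.04 CPM in SAG. Thus it had the same low and high replicates as *Shmt2* in the FGF experiment and no separation of DMSO and SAG.

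*Mthfd2*, which oxidizes methylene-tetrahydrofolate, was at 8.64, 3.68 and 4.17 CPM in DMSO and at 29.0, 0 and 35.6 CPM in SAG. It was at 0.0410, 1.93, 12.8 and 7.54 CPM in PBS, at 3.18, 1.89, 40.0 and 3.54 CPM in FGF2, and at 3.64, 4.15 and 17.6 CPM in FGF10. The SAG libraries lay on both sides of the DMSO libraries, and FGF2 replicate 3 stood far above the other 3 of its group. *Aldh1l2*, the mitochondrial counterpart of *Aldh1l1*, was at 12.1, 14.4, 23.0 and 23.4 CPM in FGF2 and at 5.66, 7.08 and 10.6 CPM in FGF10, so that every FGF2 library lay above every FGF10 library. In PBS it was at 8.03, 11.9, 7.71 and 24.5 CPM, overlapping both, and it was at 0 in DMSO replicates 1 and 3 and in SAG replicate 1, and at most at 9.14 CPM in the SAG experiment.

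The first comparison asked how SAG acted on these genes. *Aldh1l1* had the lowest p of the 10 and was 1.74-fold higher with SAG (log2(fold-change) 0.80, SE 0.24). It did not pass the threshold of an adjusted p under 0.05. By the quasi-likelihood fit of edgeR, with adjustment after Benjamini and Hochberg over 12538 genes, the unadjusted p was 0.00606, rank 157, and the adjusted p was 0.484. No SAG library was as low as any DMSO library. The exact permutation p, two-sided, was 0.1, and 3 against 3 allow none smaller. Of all genes, 5.96% were higher with SAG without overlap. In fits without 1 library the log2(fold-change) of *Aldh1l1* was between 0.59 and 0.98. DESeq2's Wald test, with a log2(fold-change) of 0.81, gave *Aldh1l1* an adjusted p of 0.0119, and it called 373 genes, 2.37% of those it tested. Over the other alternatives, all of them edgeR fits, the adjusted p of *Aldh1l1* ran from 0.216 to 0.955.

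Beside this difference, the summed level of the 12 astrocyte markers, which do not include *Aldh1l1*, was 8319 to 9343 CPM with SAG and 9906 to 11428 CPM with DMSO, so it was lower in every SAG library. *Apoe* contributed the most counts to this sum. The single markers went both ways, with 5 of 12 above 0 (median log2(fold-change) -0.13), from *Gfap* at -2.08 (SE 0.35) to *S100b* at 1.77 (SE 3.19). In edgeR's test 0 of them passed the threshold and 6 had an unadjusted p under 0.05, against 5.69% of all genes. DESeq2 called *Gfap*, *Sox9* and *Slc4a4*, where edgeR's log2(fold-change) was -0.52 for *Sox9* and 0.91 for *Slc4a4*. The summed level of 12 cell cycle genes was 295 to 455 CPM with SAG and 222 to 299 CPM with DMSO. Their part in the level of *Aldh1l1* was not tested.

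None of the 10 genes passed the edgeR threshold with SAG, where 0.0638% of all genes tested did, and 1 gene, *Aldh1l1*, had an unadjusted p under 0.05, against 5.69% of all genes. Of the 10, 6 were above and 4 below 0 on the log2 scale, where 48.9% of all genes were above, and their median log2(fold-change) was 0.077 against -0.020 over all genes. For the abundant genes the fit bounded the difference. The 95% interval of the log2(fold-change) was -0.83 to 0.27 for *Phgdh*, -0.59 to 0.69 for *Psat1* and 0.33 to 1.26 for *Aldh1l1*. For *Mthfd1* it was -0.29 to 1.66, for *Psph* -1.85 to 0.75 and for *Shmt2* -1.32 to 1.54. The genes with a library at 0 in this comparison were hardly bounded. *Mthfd2* had a log2(fold-change) of 2.00 (SE 1.81), *Mthfd1l* of 1.30 (SE 2.79), *Shmt1* of -1.09 (SE 3.20) and *Aldh1l2* of -0.33 (SE 3.25).

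**Figure D2:**
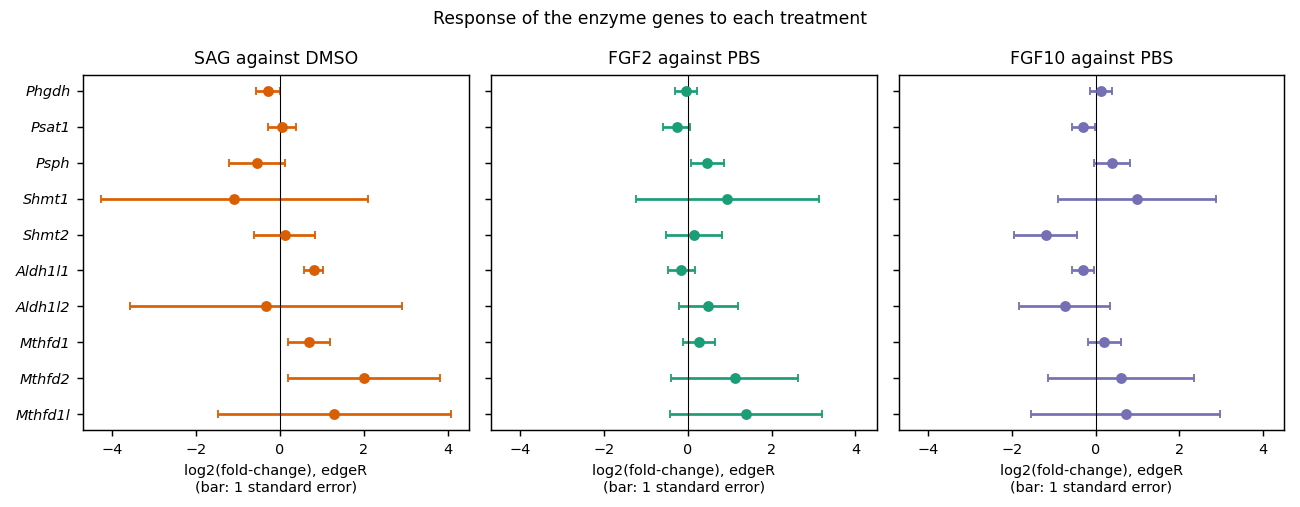
The log2(fold-change) of each enzyme gene from edgeR (points) with 1 standard error (bars) for SAG against DMSO, FGF2 against PBS and FGF10 against PBS; FGF2 and FGF10 share the PBS libraries. *Aldh1l1* with SAG, at 0.80 (SE 0.24), is the point farthest from 0 in units of its error, and the widest bars belong to the genes with libraries at 0.

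The second set of comparisons asked how FGF2 and FGF10 acted. With FGF2, 0 of the 10 genes passed the threshold or had an unadjusted p under 0.05 in edgeR's test, as 0% and 1.75% of all 12744 genes did, and DESeq2 called 0 of the 10, against 0.868% of all genes. The libraries of FGF2 and PBS overlapped for all 10 genes, while 2.45% of all genes did not overlap. Of the 10, 7 were above and 3 below 0, where 50.1% of all genes were above, with a median of 0.37 on the log2 scale. The 95% interval of the log2(fold-change) was -0.54 to 0.46 for *Phgdh*, -0.89 to 0.36 for *Psat1*, -0.77 to 0.46 for *Aldh1l1*, -0.47 to 1.02 for *Mthfd1* and -0.29 to 1.22 for *Psph*. It was -1.15 to 1.46 for *Shmt2*, which differed more between replicates of each group than between the groups.

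With FGF10, 0 of the 10 genes passed the threshold or had an unadjusted p under 0.05, against 0% and 2.29% of 13309 genes, and DESeq2 called 0 of the 10, against 0.625% of all genes. None was without overlap, against 4.79% of all genes. Of the 10, 6 were above and 4 below 0, where 49.9% of all genes were above, with a median of 0.17 on the log2 scale. *Shmt2* had the lowest log2(fold-change), -1.19 (SE 0.75). Its mean was 22.9 ± 21.3 CPM in the 3 FGF10 libraries and 52.2 ± 41.1 CPM in the 4 PBS libraries (± SD). FGF10 has 1 library and PBS has 2 among the replicates in which *Shmt2* was high, and within replicates 1 and 2 alone the value was -0.81. For *Phgdh*, *Psat1* and *Aldh1l1* the 95% intervals were -0.37 to 0.63, -0.82 to 0.23 and -0.81 to 0.20. The FGF2 and FGF10 comparisons share the PBS libraries.

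Set against each other at the same dose and time, FGF2 and FGF10 gave 0 of 10 genes past the threshold, against 0% of 13493 genes, and 0 with an unadjusted p under 0.05, against 2.4% of them. DESeq2 called 0 of the 10, against 0.543% of all genes. *Aldh1l2* had a mean of 18.2 ± 5.79 CPM in the 4 FGF2 libraries and of 7.77 ± 2.53 CPM in the 3 FGF10 libraries (± SD). It was the 1 gene of the 10 whose libraries did not overlap, where 2.33% of all genes were higher with FGF2 without overlap. The log2(fold-change) of *Aldh1l2* was 1.24 (SE 0.81, edgeR adjusted p = 1.00), and exact permutation gave a two-sided p of 0.0571, where 0.0286 is the smallest that 4 against 3 allow. Of the 10 genes 8 were above 0, as 50.5% of all genes were. FGF2 has 2 libraries and FGF10 has 1 among replicates 3 and 4, and the part of this was not tested. Within replicates 1 and 2 alone, *Psat1* was at -0.48 (SE 0.27), *Psph* at -0.32 (SE 0.48) and *Aldh1l1* at -0.34 (SE 0.22). *Mthfd1* was at -0.29 (SE 0.40) and *Mthfd2* at -0.61 (SE 2.49). Still above 0 there were *Shmt2* at 0.93 (SE 0.88), *Aldh1l2* at 1.07 (SE 1.25) and *Mthfd1l* at 0.50 (SE 3.87).

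The controls of both experiments were compared to place their levels. *Aldh1l1* was 1.92-fold higher in PBS than in DMSO, with a log2(fold-change) of 0.94 and an SE of 0.25 (unadjusted p = 0.00191, edgeR adjusted p = 0.978 over 13271 genes). The PBS and DMSO libraries did not overlap (exact permutation, two-sided p = 0.0571), and 3.04% of all genes were likewise higher in PBS without overlap. Of the 10 genes, 0 passed the edgeR threshold, against 0% of all genes, and 1 had an unadjusted p under 0.05, against 4.37%. On the log2 scale 8 of the 10 were above 0, as 51.1% of all genes were. DESeq2 called 1 of the 10, *Aldh1l1* (log2(fold-change) 0.94, adjusted p = 0.00747), against 1.16% of all genes, and over the edgeR alternatives the adjusted p ran from 0.10 to 1.00. *Phgdh* went the other way, at -0.45 (SE 0.26). Beside this difference, all 12 cell cycle genes were above 0 in PBS (median log2(fold-change) 1.57), with sums of 264 to 1311 CPM in PBS and 222 to 299 CPM in DMSO. Of the 12 astrocyte markers 7 were above 0 (median 0.17), and DESeq2 called *Gja1*, *S100b* and *Slc4a4* higher in PBS. Their part in the level of *Aldh1l1* was not tested. Vehicle, days in culture and experiment cannot be told apart in this comparison.

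In the FGF experiment several of the 10 genes differed between replicates of the same group. Replicates 3 and 4 (2 PBS, 2 FGF2 and 1 FGF10 libraries) are set here against replicates 1 and 2 (2 libraries of each group), with the treatment as a term in the fit. No label says what sets these replicates apart. The sets were known from earlier results of these data, so the differences are given without p. For *Shmt2* the 6 libraries of replicates 1 and 2 were at 16.7 ± 7.10 CPM and the 5 of replicates 3 and 4 at 81.8 ± 23.1 CPM (± SD), 4.59-fold higher. *Aldh1l1* was at 212 ± 30.3 and 364 ± 55.5 CPM, 1.74-fold higher, and *Psat1* at 143 ± 31.9 and 246 ± 24.9 CPM, 1.77-fold higher. *Mthfd1l* was at 1.30 ± 1.49 and 17.4 ± 8.26 CPM, with a log2(fold-change) of 3.66 (SE 1.33). In each of these 4 genes every library of replicates 3 and 4 lay above every library of replicates 1 and 2, as 1.99% of 18433 genes did. The filter on counts here took group and replicate set together, so a gene with enough counts in 1 library could pass. These 18433 genes thus include sparser genes than the other comparisons, and their shares are not directly comparable.

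Of the other genes, *Mthfd2* was at 2.47 ± 1.498 CPM in replicates 1 and 2 and at 16.3 ± 14.3 CPM in replicates 3 and 4, and overlapped only through FGF2 replicate 4 at 3.54 CPM. *Shmt1* (4.13 ± 5.83 and 12.8 ± 8.23 CPM), *Aldh1l2* (9.87 ± 3.43 and 17.8 ± 8.01 CPM), *Psph* (39.8 ± 16.1 and 55.8 ± 11.1 CPM) and *Mthfd1* (58.2 ± 19.0 and 68.3 ± 19.5 CPM) had higher means in replicates 3 and 4 and overlapped (SD, n = 6 and 5). *Phgdh* alone had a log2(fold-change) below 0, -0.053 (SE 0.22), at 119 ± 23.2 and 112 ± 20.7 CPM. The median of the 10 was 0.81 against -0.053 over all genes. Within PBS alone 6 of the 10 were higher in both libraries of replicates 3 and 4 than in both of replicates 1 and 2, against 14.9% of all genes, and within FGF2 alone 9 were, against 15.6%, the exception being *Phgdh*.

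**Figure D3:**
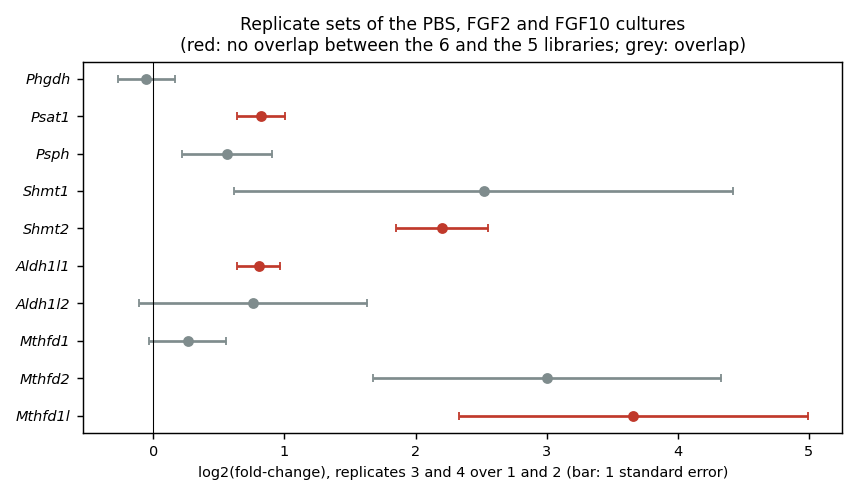
The log2(fold-change) between replicates 3 and 4 (5 libraries) and replicates 1 and 2 (6 libraries) of the PBS, FGF2 and FGF10 cultures, with 1 standard error (bars); red marks genes whose libraries do not overlap. *Psat1*, *Shmt2*, *Aldh1l1* and *Mthfd1l* are red, and *Phgdh* sits at -0.053.

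Summed by compartment, the 4 mitochondrial enzymes were at 19.1 to 40.0 CPM in replicates 1 and 2 and at 96.9 to 189 CPM in replicates 3 and 4, with means of 30.3 ± 7.83 (n = 6) and 133 ± 35.1 CPM (n = 5). The 3 cytosolic folate enzymes were at 225 to 309 and at 379 to 533 CPM, and the 3 enzymes of serine synthesis at 221 to 352 and at 389 to 444 CPM. None of these sums overlapped between the sets, but each holds genes that did. These were *Mthfd2* and *Aldh1l2* of the mitochondrial enzymes, *Mthfd1* and *Shmt1* of the cytosolic ones, and *Phgdh* and *Psph* of serine synthesis. *Shmt2*, with means of 16.7 and 81.8 CPM, made up most of the mitochondrial sum. In the SAG experiment the mitochondrial sum was 43.5 to 53.3 CPM with DMSO and 49.3 to 90.0 CPM with SAG, all above replicates 1 and 2 and below replicates 3 and 4 of the FGF experiment. The sum of the cytosolic enzymes, most of it *Aldh1l1*, was 196 to 236 CPM with DMSO and 297 to 430.0 CPM with SAG.

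The same replicates also differed in markers of cell types and of cell division. The summed level of 12 cell cycle genes was 264 to 426 CPM in replicates 1 and 2 and 1101 to 1776 CPM in replicates 3 and 4, and all 12 genes had a log2(fold-change) above 0. All 12 astrocyte markers were below 0, with sums of 12369.7 to 13748 and of 6352 to 9208 CPM, to which *Apoe* contributed the most counts. Of them, *Slc4a4* at -0.0015 (SE 0.16) and *S100b* at -0.057 (SE 1.09) lay near the median of all genes, -0.053. *Aldh1l1*, itself used as an astrocyte marker, was above 0. The sum of 10 neuron markers was 142 to 233 and 30.9 to 58.4 CPM, with *Slc17a7* at 0 in all 17 libraries, that of 7 markers of ependymal cells 381 to 601 and 83.3 to 255 CPM, and that of 10 markers of the oligodendrocyte lineage 759 to 939 and 330.2 to 767 CPM. The sums of 10 markers of microglia or macrophages were 0 to 10.6 and 0 to 4.36 CPM, those of 10 markers of endothelial or mural cells 18.2 to 74.7 and 0 to 18.0 CPM, and those of 8 markers of fibroblasts 33.99 to 86.0 and 20.3 to 51.0 CPM. The part of these cells and of cell division in the levels of the 10 genes was not tested.

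Ratios within a library do not depend on its normalization. The ratio of *Aldh1l1* to *Phgdh* counts was 0.898 to 1.33 in DMSO and 1.67 to 2.94 in SAG, and 1.19 to 2.33 in replicates 1 and 2 against 2.46 to 4.42 in replicates 3 and 4 of the FGF experiment. The ratio of *Psat1* to *Phgdh*, enzymes of consecutive steps, was 0.822 to 1.63 in replicates 1 and 2 and 1.76 to 3.15 in replicates 3 and 4. With SAG it lay between 0.637 and 1.89, around the 0.884 to 1.11 of DMSO. Both ratios thus separated the replicate sets, as the levels of *Aldh1l1* and *Psat1* themselves did, and the first also separated SAG from DMSO. The ratio of *Shmt2* to *Phgdh* likewise separated the sets (0.0519 to 0.244 and 0.383 to 1.24). The ratios of *Psph* (0.159 to 0.629 and 0.327 to 0.721) and *Mthfd1* (0.259 to 0.601 and 0.282 to 1.01) to *Phgdh* overlapped between them.

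**Figure D4:**
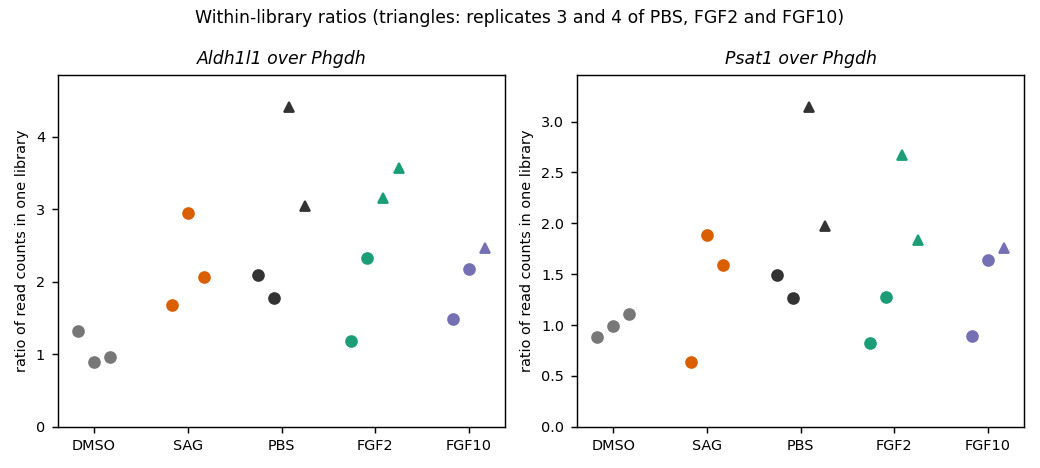
Ratio of read counts of *Aldh1l1* (left) and *Psat1* (right) to *Phgdh* in each library, on linear axes from 0, with triangles for replicates 3 and 4 of PBS, FGF2 and FGF10. The triangles start at 2.46 (left) and 1.76 (right), above every circle of the same 3 groups, which reach 2.33 and 1.63.

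The spread between cultures of a group was set against that of the 200 genes of nearest mean level, as a description without a test. *Shmt2* had a coefficient of variation within groups of 76.9%, where the median of its neighbours was 39.5%, and was more variable than 99% of them. *Mthfd2* (124% against 79.4%), *Aldh1l1* (32.7% against 20.7%), *Mthfd1l* (128% against 95.7%) and *Psat1* (34.3% against 23.4%) also lay high, above 97.5%, 95%, 93% and 86.5% of their neighbours. *Shmt1* (119% against 99.99%) and *Mthfd1* (38.2% against 34.4%) lay above 80.5% and 67%. *Phgdh* (22.7% against 26.1%), *Psph* (38.8% against 42.2%) and *Aldh1l2* (57.0% against 81.3%) were less variable than their neighbours at the median. The 5 most variable genes in this ranking include the 4 that separated the replicate sets. Each group of the FGF experiment holds both sets, so a difference between the sets enters this coefficient of variation. That agreement is therefore no separate evidence.

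**Figure D5:**
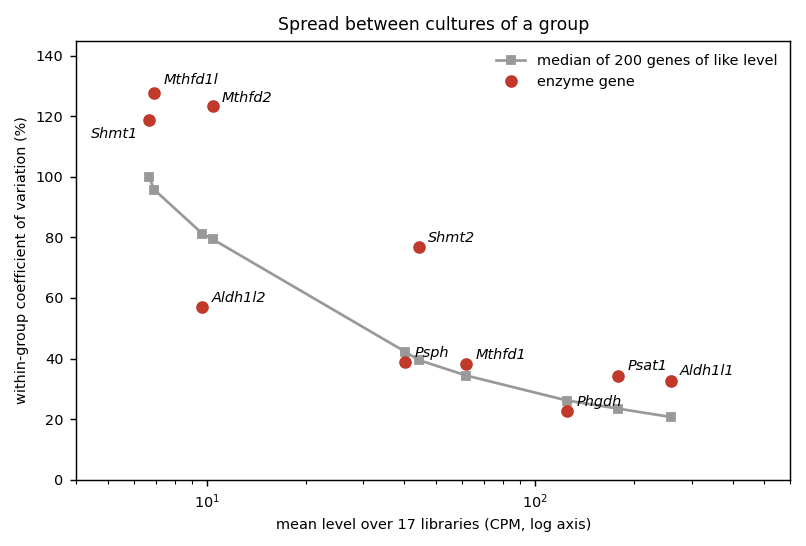
Within-group coefficient of variation (percent) of each enzyme gene (red) against its mean level over 17 libraries (CPM, log axis), with the median of the 200 genes of like level (grey squares). *Mthfd2*, at 124%, and *Shmt2*, at 76.9%, stand farthest above the grey line for their levels, and *Phgdh*, at 22.7%, lies just under it.

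Across the 17 libraries, after subtraction of the group means, the log2 levels of *Shmt2* and *Aldh1l1* had a Pearson correlation of 0.86, *Psat1* and *Aldh1l1* of 0.77 and *Psat1* and *Shmt2* of 0.64. When the means of the replicate sets were subtracted as well, the values were 0.75, 0.31 and 0.21. *Psph* and *Shmt1*, at 0.79 and 0.78, and *Mthfd1* and *Mthfd1l*, at 0.70 and 0.81, kept theirs. Other pairs became negative. *Aldh1l1* and *Mthfd2* went from 0.084 to -0.80, *Psat1* and *Mthfd2* from 0.045 to -0.55, and *Shmt2* and *Mthfd2* from 0.088 to -0.51. *Mthfd2* had 0 counts in SAG replicate 2, a log2 level of -4.34 against 4.86 and 5.16 in replicates 1 and 3. *Aldh1l1* and *Psat1* were highest of SAG in that library. The weight of this library in the correlations with *Mthfd2* was not tested. SAG and DMSO have no replicate sets, so only their group means were subtracted. FGF10 replicate 3, alone in its set, was at 0 after subtraction. *Shmt2* and *Mthfd1* went from -0.13 to -0.46. For *Phgdh* the values before and after subtraction of the set means were 0.0057 and 0.063 with *Psat1*, 0.15 and 0.33 with *Shmt2*, 0.087 and 0.30 with *Aldh1l1*, and -0.42 and -0.45 with *Mthfd1*. These values describe 17 libraries that share preparation and depth within a library, and several of the genes have libraries at 0. Among the genes most like *Phgdh* by the same measure, of 7617 with at least 10 counts in every library, were *Ston2* (0.81), *Urod* (0.75), *Ankrd10* (0.74) and *Dcun1d5* (0.74), and *Psat1* ranked 3610.

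Genes of neighbouring pathways were followed as lists. In each of the 5 comparisons 0 genes of the other 15 lists passed the edgeR threshold, and between 2 (FGF2 against PBS and FGF2 against FGF10) and 14 genes (SAG) had an unadjusted p under 0.05. DESeq2 called 6 of their genes for SAG, 2 for FGF2, 1 for FGF10, 0 for FGF2 against FGF10 and 4 for PBS against DMSO, all of them in the lists of cell types or of the cell cycle and none in those of neighbouring pathways. With SAG, 7 of 12 further genes of the folate cycle and folate transport were above 0 (median log2(fold-change) 0.36), with *Slc19a1*, the reduced folate carrier, highest at 2.01 (standard error 1.46) and *Folr1*, a folate receptor, lowest at -5.94 (standard error 2.92). Of the glycine cleavage system, which also charges folate in mitochondria, 2 of 4 were above 0 (median -0.0099), between *Gcsh* at 1.24 and *Gldc* at -0.67. Of genes of serine and glycine transport and use, 8 of 13 were above 0 (median 0.24), between the transporter *Slc1a5* at 4.10 and *Sptlc1*, a subunit of serine palmitoyltransferase, at -1.05. *Slc1a5* had at most 34 counts in a DMSO library, and the standard error was 3.35. In the methionine cycle and transsulfuration 2 of 7 were above 0 (median -0.20), with *Mtrr* at 1.06 and *Cbs* at -0.53, and in purine synthesis 4 of 12 (median -0.06), with *Adss* at 1.23 and *Pfas* at -0.63. Of the targets of the amino acid response factor ATF4, which is known to drive genes of serine synthesis, 9 of 16 were above 0 (median 0.16), with *Asns* at 1.47 and *Cebpb* at -2.53, and of the aminoacyl-tRNA synthetases 3 of 12 (median -0.22), with *Sars* at 0.52 and *Cars* at -3.33.

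With FGF2 the medians of these lists lay between -0.06 and 0.28 on the log2 scale. The folate list had 8 of 13 genes above 0 (median 0.06), with *Folr1* highest at 1.41, and the glycine cleavage system 2 of 4 (median 0.09), with *Gldc* at 0.35 and *Dld* at -0.26. Serine and glycine transport and use had 6 of 14 above 0 (median -0.06), with *Slc1a4* at 0.39 and *Slc7a10* at -1.17, and the methionine list 5 of 8 (median 0.28), with *Mtrr* at 1.30 and *Mat2a* at -0.13. Purine synthesis had 8 of 12 above 0 (median 0.19), with *Prps2* at 1.68 and *Adsl* at -0.47. The ATF4 list had 12 of 17 (median 0.21), with *Vldlr* at 0.78 and *Sesn2* at -0.35, and the aminoacyl-tRNA synthetases 6 of 12 (median 0.01), with *Mars1* at 1.23 and *Cars* at -0.99. None of these genes passed the test with either agent.

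Between the replicate sets, 12 of 12 genes of purine synthesis (median log2(fold-change) 0.43) and 15 of 19 of the ATF4 list (median 0.87) were above 0, beside 9 of the 10 enzyme genes (median 0.81). The summed level of the ATF4 list was 614 to 827 CPM in replicates 1 and 2 and 1257 to 1559 CPM in replicates 3 and 4, and that of purine synthesis 514 to 637 and 712 to 978 CPM, without overlap. The aminoacyl-tRNA synthetases had 10 of 12 above 0 (median 0.33) and the further folate genes 8 of 13 (median 0.33). The methionine list had 6 of 9 above 0 (median 0.27), serine and glycine transport and use 8 of 14 (median 0.09), and the glycine cleavage system 1 of 4 (median -0.07). The sums of these 5 lists overlapped between the sets. The cell cycle list had 12 of 12 above 0, with a median of 2.29, and *Phgdh*, of serine synthesis, was at -0.053. The median over all genes was -0.053. The part of ATF4 or of cell division in the levels of the 10 genes was not tested.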

How the data were processed

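The data are bulk 3ʹ-end RNA-seq (QuantSeq) of 17 astrocyte cultures. The authors deposited raw read counts per gene in 1 table of 56805 rows, of which 114 rows of spike-in transcripts, with at most 86 counts in a library, were left out. Per the submitters' processing notes, STAR, DESeq2 and GRCm38 were used. The annotation, strand setting, trimming and treatment of duplicate reads are not given in the sources used here. A transcript contributes reads at its 3ʹ end only, so a gene whose end is not annotated is undercounted, and reads at ends shared by overlapping genes cannot be assigned without strand.

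Except for SAG, each column of the count table carries the group name and replicate number of its label. The columns headed Shh were taken as the SAG libraries of the same number. SAG is the only SHH-pathway treatment of the series, but no label states this match, and all SAG results rest on it. All 17 libraries were used, and the number of columns left unmatched was 0. The labels hold 4 FGF2 libraries where the methods of the study name fewer, and all 4 were used. No pair of libraries of a group agreed within sampling noise.

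Counts were filtered with filterByExpr (minimum count 10, minimum total 15), scaled by TMM and tested with edgeR's quasi-likelihood test (edgeR 4.0.16, limma 3.58.1, R 4.3.3) on the libraries of each comparison, with Benjamini-Hochberg adjustment over all genes tested and a threshold of 0.05. Single genes were also tested on CPM with the two-sided exact permutation test. Pearson correlations used log2 CPM with a prior count of 2. The procedure was tested on simulated data in which well-counted genes changed strongly and libraries of a group differed far less than here. The common coefficient of variation between libraries in the edgeR fits of the real counts was 107% to 117%. The simulation cannot show how the procedure performs at this spread or at low counts. The alternatives were DESeq2's Wald test (DESeq2 1.42.0) and its size factors, no filter or a mean count of 10, a block for the replicate number, a factor for the replicate set, a fit of all 17 libraries, single sets, a stricter threshold, and leaving out each library.

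The text names all 10 enzyme genes, genes among the 5 most like *Phgdh*, and, for each list of neighbouring pathways without a called gene, the gene with the highest and the lowest log2(fold-change) for SAG and for FGF2. Marker lists are given as sums. Some genes that this rule names are not reported here. The 10 genes and the lists were chosen with earlier results of these data known. Same-numbered libraries of 2 groups had correlations of their deviations from the group means between -0.02 and 0.13, so the numbers were not taken to pair the cultures. Promoter windows come from RefSeq (GRCm38.p6), and gene spans and overlaps from GENCODE on GRCm38. The 95% intervals of a log2(fold-change) are a normal approximation from the standard error of the edgeR fit, which includes the spread between libraries, and the limits allowed by a count of 0 cover counting error only.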

Additional observations from a re-analysis of the deposited data

Results flagged for a closer look

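*Mthfd2* stood at 40.0 CPM in FGF2 replicate 3, against 1.89 to 3.54 CPM in the other 3 FGF2 libraries. The gap to the nearest library exceeded the 95% critical value of Dixon's test for 4 values. This was 1 of 20 groups of 4 libraries tested, where chance gives about 1 in 20.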

How the results depend on the processing

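Among the log2(fold-change) values of the 10 genes under settings other than leaving out a library, 347 kept their direction and their side of the threshold, 20 reversed and 2 passed the threshold. The latter were *Aldh1l1* with DESeq2, which called 1 of the 10 genes rather than 0 for SAG against DMSO and 1 rather than 0 for PBS against DMSO. Over all genes, DESeq2 called 373, 123, 102, 90 and 182 for SAG, FGF2 and FGF10 against their controls, FGF2 against FGF10 and PBS against DMSO, where edgeR called 8, 0, 0, 0 and 0. With the replicate block the reversed values were *Shmt2* (-0.33) and *Aldh1l2* (1.82) for SAG, *Shmt2* (-0.27) and *Mthfd2* (-1.45) for PBS against DMSO, and *Psat1* (-0.20), *Aldh1l1* (-0.20), *Mthfd1* (-0.11) and *Mthfd2* (-0.041) for FGF2 against FGF10. The block moved 0 calls of the 10 genes. For FGF2 against PBS, *Phgdh* was at 0.051 in replicates 3 and 4 alone and *Shmt1* at -3.05 with the replicate set as a factor. For FGF2 against FGF10, with the set as a factor and, second, in replicates 1 and 2 alone, *Psat1* was at -0.22 and -0.48, *Psph* at -0.054 and -0.32, *Aldh1l1* at -0.083 and -0.34, *Mthfd1* at -0.018 and -0.29, and *Mthfd2* at -0.25 and -0.61. The count of genes whose replicate sets did not overlap was 9 rather than 4 within FGF2 alone, where only 2 libraries stand on each side, and 4 to 5 with 1 library left out, an alternative chosen after seeing the data. Where these settings change a value, the cause was not tested.

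With 1 library left out, 304 values kept and 46 changed their sign, and 0 passed the threshold. With SAG the ranges were -0.26 to 0.28 for *Psat1*, -0.84 to 0.063 for *Psph*, -10.98 to 1.26 for *Shmt1*, -0.25 to 0.63 for *Shmt2* and -1.16 to 9.73 for *Aldh1l2*. With FGF2 they were -0.17 to 0.088 for *Phgdh*, -0.25 to 0.69 for *Shmt2*, -0.46 to 0.026 for *Aldh1l1* and -0.96 to 1.93 for *Mthfd2*. With FGF10 they were -0.012 to 0.21 for *Phgdh*, -0.012 to 0.44 for *Mthfd1*, -0.52 to 1.41 for *Mthfd2* and -2.03 to 1.503 for *Mthfd1l*. For FGF2 against FGF10 they were -0.24 to 0.23 for *Psat1*, -0.17 to 0.35 for *Psph*, -0.79 to 0.51 for *Shmt1*, -0.15 to 0.33 for *Aldh1l1*, -0.051 to 0.25 for *Mthfd1* and -1.56 to 1.65 for *Mthfd2*. For PBS against DMSO they were -0.035 to 0.84 for *Psph*, -0.84 to 2.25 for *Shmt1*, -0.11 to 0.77 for *Shmt2*, -0.028 to 1.00 for *Mthfd1* and -0.77 to 0.52 for *Mthfd2*. The genes with libraries at 0, *Shmt1*, *Aldh1l2*, *Mthfd2* and *Mthfd1l*, reached up to 1023, 1098, 1911 and 1255 counts in other libraries.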
